A study of Rattus norvegicus with 8 samples.

Results

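Kidney allografts from rats given prednisolone were compared with untreated kidney allografts of the same weight class of donor and recipient. The comparison used 4 of the 8 arrays of the series, 2 of prednisolone-treated and 2 of untreated grafts, chosen by sample title and not by any measured value. All were kidneys of male inbred DA (RT1a) rats placed orthotopically into male Lewis (RT1l) rats whose own kidneys had both been removed, a pairing mismatched at the MHC. Donors weighed 20% to 50% less than recipients in both groups, rats weighed 120 to 250 g, and ages are not given in the labels. Grafts had been flushed with UW solution and stored cold, at 4 °C, for 25 min. The prednisolone group received a single intravenous injection of 15 mg/kg immediately after the operation, and the untreated group received no drug. All grafts were taken at 24 h and snap-frozen, so they show a single dose and a single time. The other 4 arrays were 2 untreated grafts with a low weight difference (0% to 20%) and 2 high-difference grafts given 500 µg of antibody to the IL-6 receptor (anti-IL6R). They shared the estimate of the spread and are given as levels beside the comparison. The series calls the 2 arrays of a group biological replicates, and the labels do not say whether each was 1 animal, so p-values measure the spread between these samples. Below, a graft means the sample on 1 array.

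Prednisolone is a synthetic glucocorticoid used against graft rejection. It binds the glucocorticoid receptor, encoded by Nr3c1, which leaves its chaperone complex, enters the nucleus and switches on genes such as Fkbp5, Tsc22d3 and Per1 at glucocorticoid response elements. The bound receptor also restrains NF-kB and AP-1, the factors behind many cytokine and chemokine genes, and glucocorticoids deplete or redistribute lymphocytes. A transplanted kidney has passed through ischaemia and reperfusion, which injure the proximal tubule and induce injury, antioxidant and amino-acid stress genes.

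Levels are given on the log2 scale, as the log2 processed signal of a probe minus the 75th percentile of its array. A level of 0 is the array's upper quartile, 1 unit is a doubling of signal, and levels of different genes are not compared. A difference is prednisolone minus untreated in log2 units ± its moderated standard error, with 2 arrays in each group, from limma with all 8 arrays in 1 fit and Benjamini-Hochberg adjustment. Of 24452 genes tested, 0 (0%) passed an adjusted p of 0.05 in limma. An unadjusted p under 0.05 was reached by 2893 genes (11.8%), 1039 with higher signal in prednisolone grafts (4.25%) and 1854 with lower signal (7.58%). These counts rest on a spread shared with the low-difference and anti-IL6R pairs. A fit of the 4 arrays of the comparison alone gave 1282 of 24452, 536 higher and 746 lower. Scaling to the 75th percentile of the probes well above background on all arrays gave 1262 higher and 1440 lower, and normexp background correction gave 536 higher and 1559 lower. Both prednisolone arrays lay above both untreated arrays for 3392 genes (13.9%) and below both for 6115 genes (25%). The groups were at least 1 log2 unit apart for 121 genes with prednisolone above (0.495%) and for 110 with prednisolone below (0.45%). With 2 arrays against 2, an exact two-sided permutation test of a single gene cannot give a p below 33.3%. Since no gene passed, the genes below are described by their levels.

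All untreated arrays, of both weight classes, were on slide 1 and all treated arrays on slide 2, so prednisolone and slide cannot be told apart. Of the 121 genes with the gap above and the 110 with the gap below, the prednisolone grafts were also beyond all of the other 4 arrays for 21 and 46. The prednisolone pair differed by more than 1 unit for 18.6% of genes, against 8.94% in the untreated pair, 5.56% in the low-difference pair and 2.45% in the anti-IL6R pair. Replicate 2 of both groups lay at position 4 of its slide, where the last 7 of 85 spot columns held dim spots. Genes at least 3 units below all 7 other arrays numbered 42 on untreated replicate 2, with 39 in those columns, and 48 on prednisolone replicate 2, with 41 there. Genes whose probe lies in these columns are named as such below. In bulk tissue, fewer cells of a type and less RNA per cell cannot be told apart.

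By gene list, stress-response genes lay lower and leukocyte, endothelial and cell-cycle genes lay higher in the prednisolone grafts, with unequal weight of the 2 grafts. The median difference over all genes was -0.08, and 42.4% of genes lay above 0. The ATF4 stress response (median -0.70), the NRF2 antioxidant response (-0.52) and the unfolded protein response (-0.43) lay below this on both prednisolone arrays. Monocytes, macrophages and dendritic cells (1.54), T and NK cells (1.34), cell cycle (0.87) and endothelial cells (0.64) lay above it on both. Tubular injury genes (-0.76) and IL-6/STAT3 and acute-phase genes (-0.84) were far lower in replicate 2 than in replicate 1. Lists are described by counts and medians, with no test of their own.

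**Figure D1:**
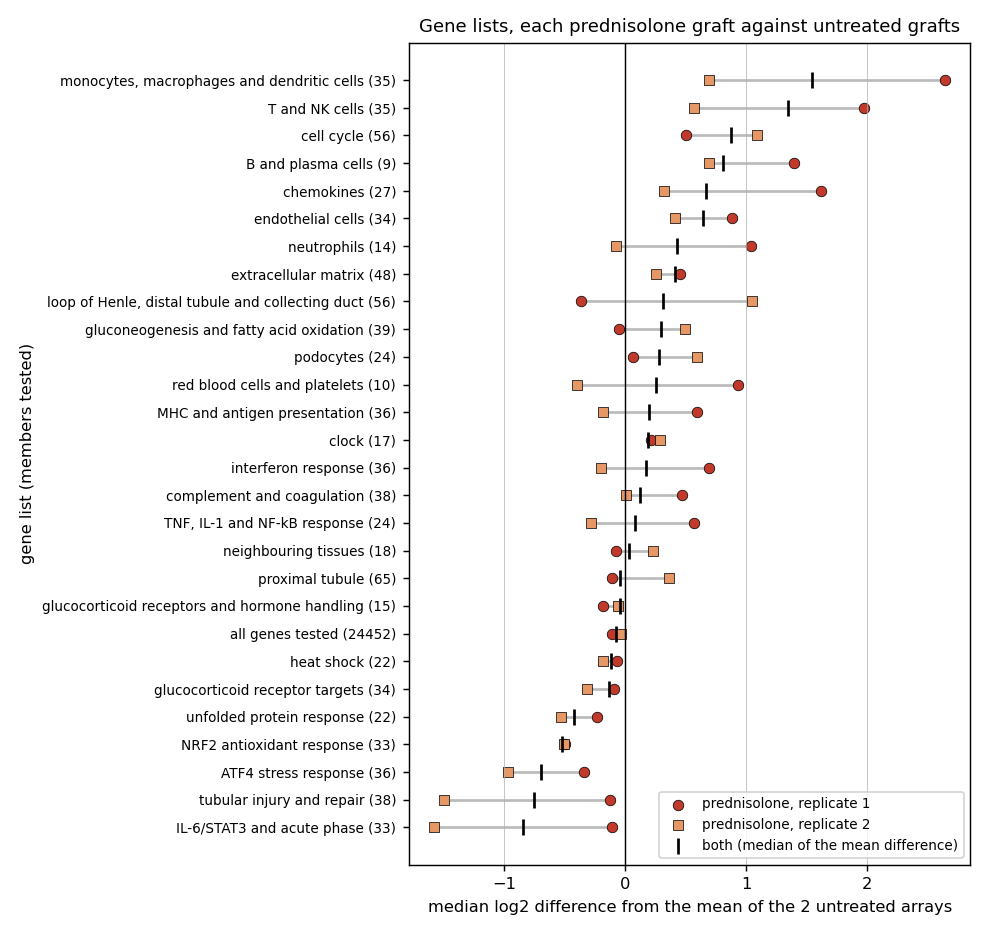
Median log2 difference of each gene list from the mean of the 2 untreated arrays (x axis, log2 units) for prednisolone replicate 1 (circles) and replicate 2 (squares), with the median of the mean difference as a black tick. The NRF2 list has nearly the same median in both grafts (-0.50 and -0.51), whereas the macrophage list lies at 2.64 in replicate 1 and 0.69 in replicate 2.

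The receptor gene was measured well above background in all 4 grafts, and genes that handle the hormone were mixed. Nr3c1, the glucocorticoid receptor, had levels of 1.65 and 1.09 in the untreated grafts and 1.78 and 1.80 in the prednisolone grafts. These did not overlap, with a difference of 0.42 ± 0.22 (unadjusted p = 0.106, limma adjusted p = 0.488), and the other 4 arrays lay between 1.68 and 1.79. Of 18 genes of receptors and hormone handling, 15 were tested, 7 lay above 0 and 8 below, with a median of -0.05. An unadjusted p under 0.05 was reached by 4, all with lower signal, beside 7.58% of all genes. Hsd11b1, which regenerates active glucocorticoid, was at 6.99 and 7.16 untreated and 6.08 and 6.72 with prednisolone (-0.68 ± 0.26). Hsp90ab1, a chaperone of the unbound receptor, was at 6.74 and 6.95 untreated and 6.42 and 6.16 with prednisolone (-0.55 ± 0.19). For both genes the groups were separate, but for Hsd11b1 the gap was smaller than the distance between the prednisolone grafts. Abcb1b, a P-glycoprotein drug exporter, was at -2.67 and -2.43 untreated and -3.18 and -4.62 with prednisolone, with the lower value in replicate 2. Nr1i2, the pregnane X receptor, was close within each group, at 1.04 and 1.0 untreated and 0.59 and 0.64 with prednisolone (-0.40 ± 0.16). The inactivating enzyme Hsd11b2, of the aldosterone-sensitive nephron, overlapped between groups, at 6.38 and 4.90 untreated and 5.97 and 7.78 with prednisolone.

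Established targets of the glucocorticoid receptor were not generally higher in the prednisolone grafts at 24 h. Of 40 listed targets 34 were tested, 12 lay above 0 and 22 below, and the median was -0.14 beside -0.08 for all genes. Prednisolone lay above both untreated arrays for 3 (8.82%, beside 13.9% of all genes) and below both for 7 (20.6%, beside 25%). Fkbp5, an immunophilin of the receptor complex and a standard readout of glucocorticoid exposure, was at 3.37 and 3.82 untreated and 3.91 and 3.97 with prednisolone. Both prednisolone levels were above the untreated levels and above all other arrays, by 0.35 ± 0.21 against untreated (unadjusted p = 0.143, limma adjusted p = 0.521), and 3 probes gave 0.44, 0.27 and 0.35. Tsc22d3, which encodes the anti-inflammatory protein GILZ, was at 3.60 and 3.90 untreated and 3.33 and 4.00 with prednisolone. Its groups overlapped, and the difference of -0.08 ± 0.41 turned to 0.02 with normexp, 0.03 with quantile normalization and 0.07 as the mean over its probes.

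Per1, Klf9, Sgk1, Dusp1 and Nfkbia, further direct targets, also had overlapping groups. Per1, a clock repressor, was at -0.77 and 0.02 untreated and -0.42 and -0.79 with prednisolone, and the transcription factor Klf9 at 2.27 and 2.25 untreated and 2.35 and 1.98 with prednisolone. Sgk1, a kinase that raises sodium uptake in the distal nephron, was at 3.19 and 3.77 untreated and 3.29 and 2.75 with prednisolone. Dusp1, a phosphatase that switches off stress kinases, was at -0.29 and 1.04 untreated and 0.41 and -0.65 with prednisolone, and Nfkbia, the inhibitor of NF-kB, at 2.15 and 2.29 untreated and 2.97 and 1.71 with prednisolone. For Sgk1, Dusp1 and Nfkbia, prednisolone replicate 2 was the lowest of the 4 grafts and replicate 1 was within or above the untreated range. Zbtb16, a transcription factor that glucocorticoids induce in many tissues, was at -4.60 and -4.53 untreated and -5.37 and -5.31 with prednisolone, with 1 of the 2 prednisolone spots well above background. It lay lower in both prednisolone grafts, with a standard error of 1.14 that exceeded the difference of -0.78. That error draws on the other pairs, at -3.93 and -7.52 in low-difference and -4.28 and -6.08 in anti-IL6R grafts. Pik3r1, a regulatory subunit of PI3-kinase, was at -2.17 and -1.32 untreated and -2.63 and -3.76 with prednisolone (-1.45 ± 0.44). The proteoglycan gene Sdc4 was at 5.88 and 6.57 untreated and 5.69 and 5.11 with prednisolone, and Cebpb, an inflammatory transcription factor, at -0.38 and 0.02 untreated and -0.60 and -1.39 with prednisolone. In these 3 the prednisolone grafts were below both untreated grafts, and replicate 2 was the lower.

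Trim63 stood apart from the other targets. This ubiquitin ligase of muscle atrophy, also called MuRF1, was at -4.25 and -4.89 untreated and -2.44 and -2.87 with prednisolone. The groups were more than 1 unit apart, with a difference of 1.92 ± 0.39 (unadjusted p = 0.00219, limma adjusted p = 0.314). Its probe lies in the dim columns, a probe outside them gave 1.36, and normexp gave 0.90 for the first. The low-difference grafts, at -2.55 and -3.55, and the anti-IL6R grafts, at -2.59 and -2.56, were also above both untreated high-difference grafts. Its promoter is shown because it holds the letters of a glucocorticoid response element, GNACA and TGTNC separated by 3 bases, in capitals. The motif reads the same on both strands. The sequence is from RefSeq on GRCr8, chr5:151816986-151817285, plus strand, from 250 bases before to 50 after the start, and the match ends 206 bases before the start.
Trim63: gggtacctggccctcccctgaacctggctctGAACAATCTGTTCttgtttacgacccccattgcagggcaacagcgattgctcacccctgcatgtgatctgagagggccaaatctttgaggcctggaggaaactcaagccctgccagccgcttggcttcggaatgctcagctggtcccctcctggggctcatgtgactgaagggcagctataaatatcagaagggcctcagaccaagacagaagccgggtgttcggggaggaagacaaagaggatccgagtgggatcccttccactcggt
These letters were found in 0.439% of 33469 promoters of this length and in 2 of 31 listed targets with a promoter, Trim63 and Fam107a. Fam107a, a stress-induced actin-binding protein, was at -3.80 and -4.14 untreated and -3.88 and -3.06 with prednisolone, with overlapping groups. A match describes the letters in this window only.

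**Figure D2:**
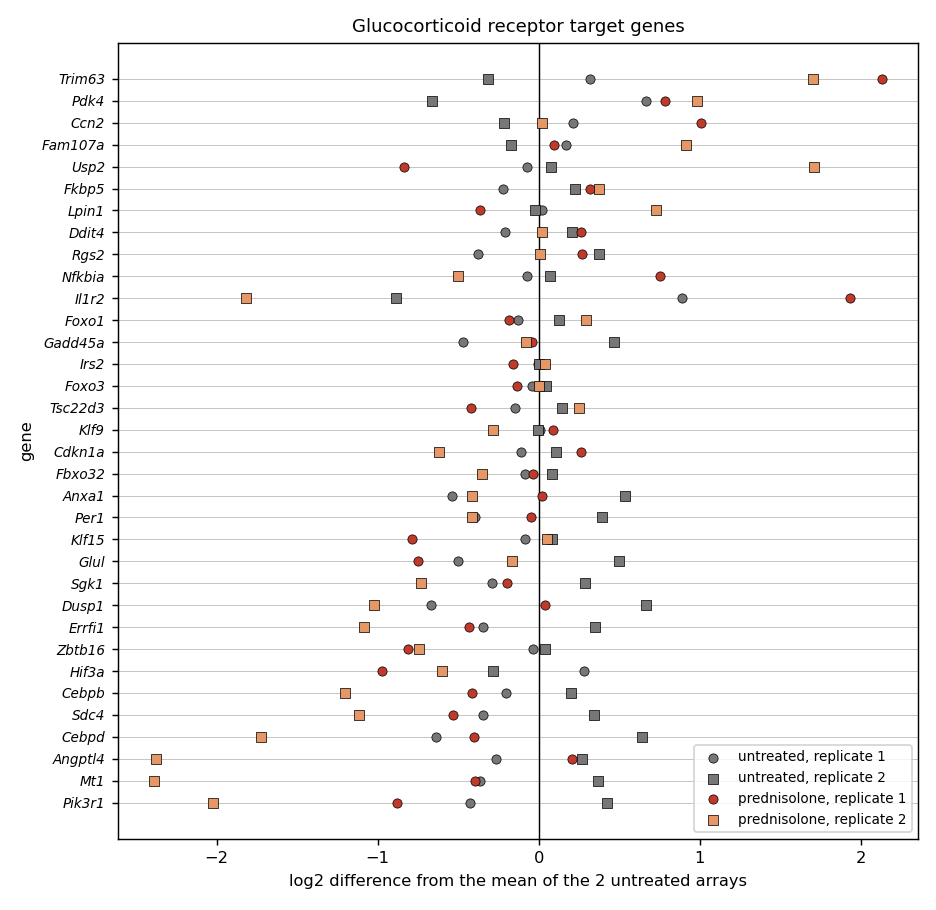
Levels of the 34 tested glucocorticoid receptor targets on the 4 arrays, as log2 difference from the mean of the 2 untreated arrays (x axis, log2 units), with circles for replicate 1 and squares for replicate 2 of each group. Both prednisolone symbols of Trim63 lie more than 1 unit above the untreated mean, and for Tsc22d3, Per1, Klf9, Dusp1 and Nfkbia the symbols of the groups mix.

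Fst, Medag and Cntf had lower signal in both prednisolone grafts than in both untreated grafts. Fst, which encodes the activin-binding protein follistatin, was at 1.78 and 1.82 untreated and -0.36 and -0.79 with prednisolone. The groups were more than 2 units apart, with a difference of -2.37 ± 0.29 (unadjusted p = 0.000128, limma adjusted p = 0.224). Both prednisolone values were below all other 6 arrays. Medag, a gene of fat-cell differentiation, showed the same order, at 0.47 and 1.03 untreated and -1.52 and -1.34 with prednisolone (-2.18 ± 0.24, limma adjusted p = 0.224). Fits with 1 array left out keep a single graft in its group, so their p-values are not given for single genes. Cntf, a neurotrophic cytokine of the IL-6 family, was at 1.97 and 2.32 untreated and 0.61 and 0.47 with prednisolone (-1.61 ± 0.21). Unlike Fst and Medag, Cntf was as low in the low-difference grafts, at 0.39 and 0.56, as in the prednisolone grafts.

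Slc17a3, an organic anion transporter of the proximal tubule, was at 5.70 and 5.52 untreated and 3.78 and 4.04 with prednisolone (-1.70 ± 0.24), and its relative Slc17a1 at 3.40 and 3.30 untreated and 2.28 and 2.30 with prednisolone (-1.06 ± 0.19). Both were lower on the prednisolone arrays than on all other 6. Nppc, which encodes C-type natriuretic peptide, was at -0.53 and 2.89 untreated and -2.25 and -2.94 with prednisolone (-3.78 ± 1.16), with the untreated grafts more than 3 units apart. Or11g1, named as an olfactory receptor gene, was well above background only in the untreated grafts of the comparison and at least 2.24-fold lower with prednisolone. Guca1a, an activator of guanylate cyclase, was at least 2.36-fold lower, and its probe lies in the dim columns. For such a bound, the brighter group's mean was divided by the lowest signal well above background on each array of the dimmer group, or by the probe's own signal where that was higher.

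**Figure D3:**
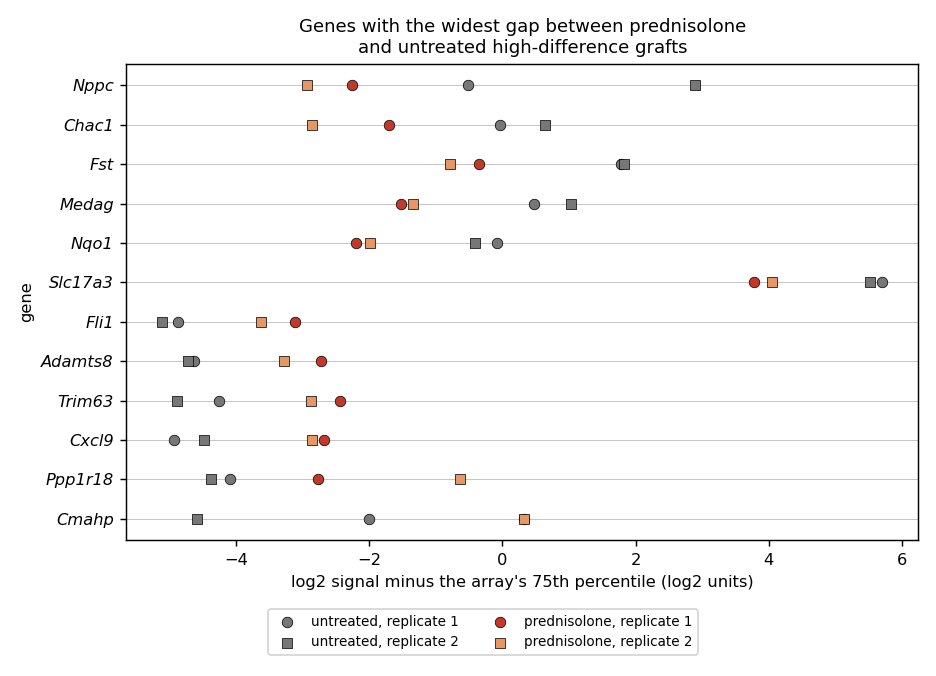
Levels on the 4 arrays (x axis, log2 signal minus the array's 75th percentile) of the 6 genes in each direction with the widest gap between groups, among genes well above background on all 4 arrays, with circles for replicate 1 and squares for replicate 2. Fst, at 1.78 and 1.82 untreated and -0.36 and -0.79 with prednisolone, shows a tight pair in each group, whereas the untreated values of Nppc and Cmahp are far apart.

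Antioxidant genes driven by NRF2, the factor that answers electrophile and oxidative stress, lay lower in both prednisolone grafts, with similar medians. Of 36 listed genes 33 were tested, 28 lay below 0, and the median was -0.50 in replicate 1 and -0.51 in replicate 2. Single genes were less alike, with 10 of the 33 more than 1 unit apart between the 2 grafts, a gap that 18.6% of all genes showed. Prednisolone was below both untreated arrays for 19 (57.6%, beside 25% of all genes) and above both for 1 (3.03%, beside 13.9%). An unadjusted p under 0.05 was reached by 11 with lower and 1 with higher signal, beside 7.58% and 4.25% of all genes. Nqo1, a quinone reductase, was at -0.08 and -0.42 untreated and -2.20 and -1.99 with prednisolone (-1.84 ± 0.36, limma adjusted p = 0.312). Srxn1, which repairs peroxiredoxins, was at -2.05 and -1.67 untreated and -3.22 and -3.28 with prednisolone (-1.39 ± 0.28). Both genes had groups more than 1 unit apart, and both were as low or lower in the low-difference grafts, at -3.03 and -2.11 for Nqo1 and -4.05 and -3.44 for Srxn1.

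Ugdh, which makes the sugar donor of glucuronidation, was at 4.43 and 4.53 untreated and 3.76 and 3.30 with prednisolone (-0.95 ± 0.22). Fth1, the heavy chain of ferritin, was at 8.97 and 8.96 untreated and 8.39 and 8.32 with prednisolone (-0.61 ± 0.16), and -0.19 with quantile normalization. For both genes the prednisolone grafts were below both untreated grafts. Gclc, of glutathione synthesis, departed from this, at 5.01 and 4.85 untreated and 1.5 and 5.0 with prednisolone, low in prednisolone replicate 1 alone. Hmox1, the haem-degrading enzyme, was at 1.23 and 2.39 untreated and 2.84 and -0.39 with prednisolone, above the untreated range in replicate 1 and below it in replicate 2. Gstm1, a glutathione transferase, lay higher with prednisolone, at 2.61 and 2.36 untreated and 3.14 and 3.16 with prednisolone (0.66 ± 0.22), above all other 6 arrays.

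Genes of the ATF4 pathway, which raises amino-acid synthesis, uptake and tRNA charging under translational stress, also lay lower. Of 41 listed genes 36 were tested and 33 lay below 0, with a median of -0.34 in replicate 1 and -0.97 in replicate 2. Prednisolone was below both untreated arrays for 18 (50%, beside 25% of all genes). Lower signal with an unadjusted p under 0.05 was reached by 11, beside 7.58% of all genes. Chac1, which degrades glutathione, was at -0.04 and 0.64 untreated and -1.70 and -2.87 with prednisolone (-2.58 ± 0.42, limma adjusted p = 0.298), and a dimmer second probe gave -2.53. The groups were more than 1 unit apart. Atf4 itself was at 5.19 and 5.71 untreated and 4.66 and 4.32 with prednisolone (-0.96 ± 0.25). Asns, asparagine synthetase, was at 3.03 and 4.01 untreated and 2.38 and 1.69 with prednisolone (-1.48 ± 0.41), and Shmt2, a mitochondrial enzyme of serine metabolism, at 4.69 and 4.90 untreated and 4.05 and 4.01 with prednisolone (-0.77 ± 0.20). All of these had both prednisolone grafts below both untreated grafts.

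Trib3, a pseudokinase that feeds back on ATF4, was at 3.06 and 4.33 untreated and 2.45 and 1.61 with prednisolone (-1.66 ± 0.47). Its low-difference grafts, at 0.97 and 0.90, and anti-IL6R grafts, at 1.19 and 0.78, were lower than the prednisolone grafts. The stress hormone gene Fgf21 went the other way and was dim, at -4.60 and -5.94 untreated and -3.72 and -3.90 with prednisolone. The promoters of Chac1 and Trib3 are shown because both hold the letters of a C/EBP-ATF response element, TGATGNAA or on the other strand TTNCATCA, in capitals. They are from RefSeq on GRCr8, for Chac1 chr3:126795881-126796180 on the plus strand and for Trib3 chr3:161275484-161275783 on the minus strand. The matches end 159 and 13 bases before the start.
Chac1: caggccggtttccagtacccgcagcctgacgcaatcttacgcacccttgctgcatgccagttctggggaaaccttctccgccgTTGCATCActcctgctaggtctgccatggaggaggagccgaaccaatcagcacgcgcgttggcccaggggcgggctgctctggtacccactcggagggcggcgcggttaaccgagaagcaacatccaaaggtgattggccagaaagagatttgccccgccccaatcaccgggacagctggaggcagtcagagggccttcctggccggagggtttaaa
Trib3: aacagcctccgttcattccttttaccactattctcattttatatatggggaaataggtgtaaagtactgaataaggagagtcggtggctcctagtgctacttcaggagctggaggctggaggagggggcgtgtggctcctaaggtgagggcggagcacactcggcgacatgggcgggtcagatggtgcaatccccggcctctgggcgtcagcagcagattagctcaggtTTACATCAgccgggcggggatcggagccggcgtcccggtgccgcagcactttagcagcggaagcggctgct
The letters were found in 3.98% of 33469 promoters and in 12 of 37 listed ATF4 genes with a promoter. Of the 9 such genes tested, 8 lay below 0, with Fgf21 the exception, beside 33 of 36 over the whole list.

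**Figure D4:**
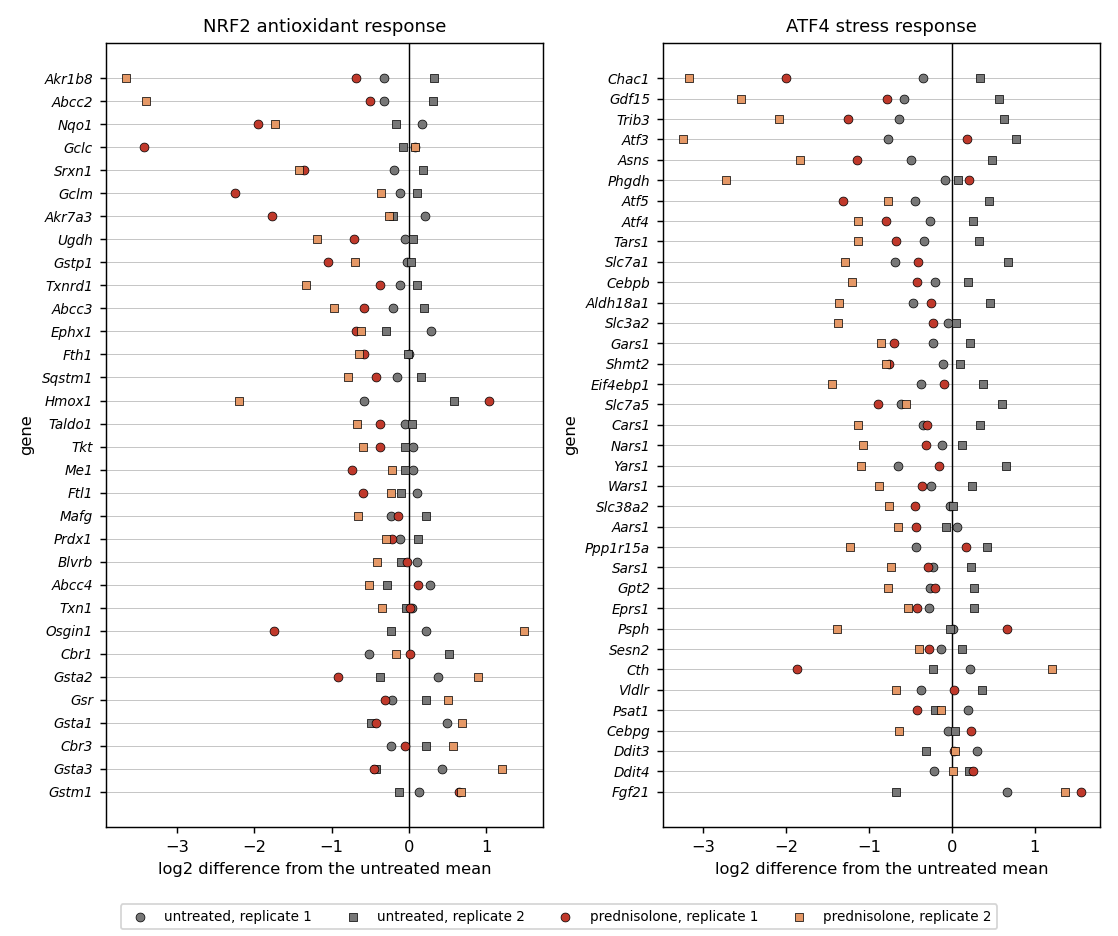
Levels of tested NRF2 and ATF4 genes on the 4 arrays, as log2 difference from the mean of the 2 untreated arrays (x axis, log2 units), with circles for replicate 1 and squares for replicate 2. Both prednisolone symbols lie below both untreated symbols for Nqo1, Srxn1, Chac1 and Atf4, and the ATF4 median is -0.34 in replicate 1 and -0.97 in replicate 2.

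The unfolded protein response, which expands the folding capacity of the endoplasmic reticulum, lay lower by less. Of 25 listed genes 22 were tested and 21 lay below 0. Both prednisolone arrays were below both untreated arrays for 11 (50%, beside 25% of all genes). Calr, a calcium-binding chaperone, was at 3.99 and 4.28 untreated and 3.22 and 3.40 with prednisolone (-0.83 ± 0.21), below all other 6 arrays. The disulfide isomerase Pdia4 was at 2.77 and 3.02 untreated and 2.19 and 2.34 with prednisolone, and Creld2 at 2.46 and 3.08 untreated and 2.28 and 1.97 with prednisolone. The central chaperone Hspa5 overlapped, at 5.10 and 6.94 untreated and 6.35 and 5.68 with prednisolone. Syvn1, a ubiquitin ligase of the endoplasmic reticulum, was at 3.58 and 3.62 untreated and 3.20 and -7.20 with prednisolone, with its probe in the dim columns. The median of heat shock genes, which include the mitochondrial chaperonins Hspd1 and Hspe1, was -0.12, close to that of all genes, and 0.01 with quantile normalization.

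The genes that led with higher signal in prednisolone grafts were dim in the untreated grafts, and their differences depended on the background correction. Ms4a7, a macrophage membrane protein, was at -6.53 and -6.73 untreated and -1.55 and 1.46 with prednisolone, not well above background untreated and at least 42.6-fold higher with prednisolone. It was above all other 6 arrays, a second probe gave 2.98, and normexp gave 3.06 in place of 6.59. Its limma adjusted p was 0.244. Cmahp, a gene of sialic acid modification, was at -2.0 and -4.59 untreated and 0.32 and 0.32 with prednisolone (3.61 ± 0.78), also above all other 6 arrays.

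Cxcl9, an interferon-induced chemokine that draws T cells, was at -4.93 and -4.47 untreated and -2.68 and -2.86 with prednisolone (1.93 ± 0.34), with its probe in the dim columns. It was higher still in the low-difference grafts, at -1.33 and -2.27, and the anti-IL6R grafts, at -1.19 and -1.36. Fli1, an ETS factor of endothelium and blood cells, was at -4.88 and -5.10 untreated and -3.12 and -3.63 with prednisolone, and the secreted protease Adamts8 at -4.64 and -4.72 untreated and -2.73 and -3.28 with prednisolone. Ppp1r18, an actin-binding phosphatase regulator with its probe in the dim columns, was at -4.09 and -4.37 untreated and -2.76 and -0.63 with prednisolone. All of these had groups more than 1 unit apart, and normexp gave smaller differences, 0.79 for Cxcl9, 0.59 for Fli1, 0.73 for Adamts8 and 1.30 for Ppp1r18. The genes with the smallest unadjusted p in this direction were not well above background in the untreated grafts. Beside Ms4a7 they were Or7g35 (at least 2.46-fold higher), Cmklr1 (at least 1.18-fold higher), Scn4a, Cytl1 and Acp4, the last 3 with no fold given. With normexp, Scn4a differed by 0.04, Cytl1 by -0.02 and Acp4 by -0.03.

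Monocyte, macrophage and dendritic cell genes lay higher in both prednisolone grafts. Of 51 listed genes 35 were tested, and 35 lay above 0, with a median of 2.64 in replicate 1 and 0.69 in replicate 2. Prednisolone was above both untreated arrays for 26 (74.3%, beside 13.9% of all genes). Higher signal with an unadjusted p under 0.05 was reached by 18, beside 4.25% of all genes. Genes that pass the background filter through the brighter group had to differ, and 25 of the 35 were well above background on all 4 arrays, with a median of 1.57. Csf1r, the macrophage colony-stimulating factor receptor, was at -2.42 and -3.21 untreated and -0.17 and -1.48 with prednisolone (1.99 ± 0.50, limma adjusted p = 0.325). A second Csf1r probe, well above background on 0 of the 4 arrays, gave -0.16. Cd86, a costimulatory ligand, was at -3.14 and -3.27 untreated and -1.67 and -2.12 with prednisolone (1.31 ± 0.26), and 0.70 with normexp. Lyz2, macrophage lysozyme, was at 2.88 and 2.29 untreated and 5.43 and 3.56 with prednisolone, and C1qa, a complement subunit made by macrophages, at 1.35 and 0.87 untreated and 3.94 and 1.76 with prednisolone. In all of these the groups were separate and replicate 1 was the higher prednisolone graft. Lyz2 in the low-difference grafts, at 4.50 and 4.95, lay between the prednisolone grafts.

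T and NK cell genes showed the same order. Of 55 listed genes 35 were tested, 32 lay above 0, and the median was 1.98 in replicate 1 and 0.57 in replicate 2. Prednisolone was above both untreated arrays for 24 (68.6%, beside 13.9% of all genes). Higher signal with an unadjusted p under 0.05 was reached by 19, beside 4.25% of all genes. Many probes were near background, since 12 were dim on both untreated arrays alone and 2 on both arrays of both groups. These 14 passed the background filter only through other groups. The 2 counts above include them and were partly set by that filter. The median was 0.56 with dim genes at their bound and 0.32 with normexp, and the 12 genes well above background on all 4 arrays had a median of 1.05. Cd3d, a chain of the T-cell receptor complex, was at -2.01 and -1.99 untreated and -0.82 and -1.43 with prednisolone (0.87 ± 0.25, limma adjusted p = 0.349). Gzmb, the cytotoxic protease granzyme B, was at least 2.46-fold higher by its brighter probe, and a second probe gave 0.08. Cd8a, of cytotoxic T cells, was at -7.43 and -7.55 untreated and -3.45 and -7.20 with prednisolone, well above background in prednisolone replicate 1 alone. Sh2d1a, a lymphocyte adaptor, was likewise, at -7.53 and -7.44 untreated and -4.14 and -6.09 with prednisolone.

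B-cell and neutrophil genes were few and depended on the graft. Of 26 B and plasma cell genes 9 were tested, with a median of 0.81, which was 0.04 over the 4 genes well above background on all 4 arrays. Cd22, an inhibitory receptor of B cells, was at least 2.68-fold higher. Of 26 neutrophil genes 14 were tested, with a median of 1.04 in replicate 1 and -0.07 in replicate 2. Alox5, the leukotriene-forming enzyme, was at least 2.13-fold higher. The calprotectin subunit S100a8 was at -3.34 and -4.80 untreated and -0.45 and -4.71 with prednisolone, high in replicate 1 alone.

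Chemokines, the attractants of leukocytes, lay higher on balance, and again mainly in replicate 1. Of 32 listed genes 27 were tested, 22 lay above 0, and the median was 1.62 in replicate 1 and 0.32 in replicate 2. An unadjusted p under 0.05 was reached by 6, all with higher signal, beside 4.25% of all genes. Both prednisolone arrays were above both untreated arrays for 9 (33.3%, beside 13.9% of all genes). Ccl2, which recruits monocytes, was at 1.86 and 0.69 untreated and 4.21 and 0.86 with prednisolone. Ccl5, a T-cell attractant, was at -2.83 and -3.0 untreated and -0.16 and -2.41 with prednisolone, and Cxcl10, of the same family as Cxcl9, at 0.73 and 0.64 untreated and 2.53 and 0.97 with prednisolone. In these 3 replicate 1 was far above the untreated grafts and replicate 2 was within 0.5 units of the nearer untreated graft. Cxcl1, which recruits neutrophils, was at -0.80 and 0.41 untreated and 0.42 and -3.38 with prednisolone, highest in replicate 1 by a margin of 0.01 and lowest in replicate 2. Ccl17, a dendritic cell chemokine, was close within the prednisolone pair, at -3.46 and -4.22 untreated and -2.40 and -2.45 with prednisolone (1.42 ± 0.31), and 0.77 with normexp.

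Cytokine and NF-kB response genes had a median near 0 (0.08 over 24 of 36 genes), at 0.57 in replicate 1 and -0.28 in replicate 2. Il18, an inflammasome cytokine, was at -0.85 and -1.16 untreated and 0.36 and -0.23 with prednisolone (1.07 ± 0.34). It was the only gene of this list with both prednisolone arrays above both untreated arrays (4.17%, beside 13.9% of all genes). Il1b was at -1.51 and -1.86 untreated and 0.54 and -1.79 with prednisolone, and the adhesion molecule Icam1 at 1.88 and 2.48 untreated and 2.72 and 1.02 with prednisolone. Both genes were highest in replicate 1, and replicate 2 was inside the untreated range for Il1b and below it for Icam1.

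Interferon response genes lay higher than in untreated grafts in prednisolone replicate 1 only, with medians of 0.69 in replicate 1 and -0.20 in replicate 2. Of 45 listed genes 36 were tested and 24 lay above 0. Prednisolone was above both untreated arrays for 7 (19.4%, beside 13.9% of all genes). Zbp1, a sensor of nucleic acids, was at -4.99 and -4.53 untreated and -2.92 and -3.79 with prednisolone (1.41 ± 0.33). It was higher than in both prednisolone grafts in the low-difference grafts, at -1.74 and -1.66, and the anti-IL6R grafts, at -2.18 and -1.89. Gbp5, a guanylate-binding protein, had the smallest p of the list but was not well above background untreated, and normexp gave 0.07.

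Antigen presentation genes were mixed. Of 43 listed genes 36 were tested, 22 lay above 0, and the medians were 0.59 in replicate 1 and -0.18 in replicate 2. The class II chain RT1-Da was at 2.0 and 0.91 untreated and 3.50 and 2.32 with prednisolone (1.46 ± 0.49), and its chaperone Cd74 at 4.28 and 3.24 untreated and 5.32 and 3.69 with prednisolone. RT1-A3, a class I gene, lay lower with prednisolone, at -0.23 and -0.02 untreated and -0.66 and -1.04 with prednisolone (-0.72 ± 0.20), below all other 6 arrays. The RT1 genes are near-identical copies that differ between DA and Lewis, so the gene and the animal behind a probe's signal are uncertain.

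Endothelial genes lay higher in both prednisolone grafts. Of 40 listed genes 34 were tested, 31 lay above 0, and the median was 0.88 in replicate 1 and 0.41 in replicate 2. Prednisolone was above both untreated arrays for 16 (47.1%, beside 13.9% of all genes). Higher signal with an unadjusted p under 0.05 was reached by 13, beside 4.25% of all genes. Plvap, of fenestrated capillaries, was at -4.75 and -5.37 untreated and -1.95 and -2.81 with prednisolone (2.68 ± 0.56), and 1.42 with normexp, with its spot not well above background on untreated replicate 2. The receptor kinase Tie1 was at -3.23 and -3.62 untreated and -2.05 and -2.52 with prednisolone (1.14 ± 0.24), and Kdr, the main VEGF receptor, at 5.44 and 5.01 untreated and 5.94 and 5.78 with prednisolone (0.63 ± 0.22). Gimap4, a GTPase also made by lymphocytes, was at -3.49 and -3.92 untreated and -1.53 and -2.31 with prednisolone (1.78 ± 0.31). All of these had separate groups, but the junction gene Cdh5 did not, at -2.65 and -3.45 untreated and -2.74 and -3.36 with prednisolone. The 4 genes that separated were also above both untreated grafts in all low-difference and anti-IL6R grafts.

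Podocyte genes had a median of 0.28 over 24 of 33 genes. Both prednisolone arrays were above both untreated arrays for 9 (37.5%, beside 13.9% of all genes). Cdkn1c, a cell-cycle inhibitor of mature podocytes, was at 2.30 and 1.68 untreated and 2.66 and 3.03 with prednisolone (0.85 ± 0.26). Nphs1, nephrin, overlapped, at 0.33 and 0.08 untreated and 0.29 and 0.83 with prednisolone. Matrix genes had a median of 0.41 over 48 of 53 genes, with 14 above both untreated arrays (29.2%, beside 13.9% of all genes). The elastic-fibre gene Fbln2 was at -3.77 and -4.59 untreated and -2.72 and -2.81 with prednisolone (1.41 ± 0.28), and the proteoglycan Bgn lay lower, at 7.41 and 7.59 untreated and 6.76 and 6.56 with prednisolone (-0.84 ± 0.25). The main fibrillar collagen Col1a1 overlapped, at 5.84 and 5.02 untreated and 5.23 and 5.62 with prednisolone.

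Cell-cycle genes lay higher, and more so in replicate 2. Of 58 listed genes 56 were tested, 44 lay above 0, and the medians were 0.50 in replicate 1 and 1.09 in replicate 2. Prednisolone was above both untreated arrays for 22 (39.3%, beside 13.9% of all genes). Only Hmmr, which lay lower, reached an unadjusted p under 0.05, beside 7.58% of all genes with lower signal. With higher signal 0 did, beside 4.25% of all genes. The untreated grafts themselves differed by a median of -1.09 (replicate 2 minus replicate 1) over these genes. The median level was 1.12 in untreated replicate 1 and 1.04 in prednisolone replicate 1, so these 2 grafts were close. Against the same untreated arrays, the low-difference grafts had a median of -0.39 and the anti-IL6R grafts 0.91. Ccnb1, a mitotic cyclin, was at 1.23 and 0.58 untreated and 2.23 and 2.23 with prednisolone (1.33 ± 0.58), and Ccnb2 at -0.18 and -1.44 untreated and 0.30 and 1.43 with prednisolone. Hmmr was at -2.81 and -2.54 untreated and -3.14 and -3.41 with prednisolone, and as the mean over its probes the difference was 0.52.

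Tubular injury genes were lower mainly in replicate 2. Of 46 listed genes 38 were tested, 31 lay below 0, and the medians were -0.13 in replicate 1 and -1.5 in replicate 2. The untreated grafts also differed, by a median of 0.82 (replicate 2 minus replicate 1), with untreated replicate 2 the higher for 33 of the 38. Against these untreated grafts the list median was -0.76 with prednisolone, -1.02 in low-difference grafts and -0.96 in anti-IL6R grafts. Spp1, osteopontin, was at 9.09 and 9.05 untreated and 8.58 and 7.69 with prednisolone (-0.93 ± 0.30, limma adjusted p = 0.364), with its spot saturated on prednisolone replicate 1. Krt20, a keratin of injured tubules, was at -0.13 and -0.76 untreated and -2.21 and -5.97 with prednisolone (-3.65 ± 1.16). Its spot on prednisolone replicate 2 was not well above background. Timp1, a protease inhibitor, was at 4.85 and 5.99 untreated and 5.13 and 2.77 with prednisolone, and Lcn2, the iron-binding protein NGAL, at -1.93 and 0.31 untreated and -1.74 and -4.03 with prednisolone. In all 4 genes replicate 2 was the lowest of the 4 grafts, and in Timp1 and Lcn2 replicate 1 was inside the untreated range. Havcr1, the injury marker KIM-1, was not tested because its spot on untreated replicate 2 was flagged. It was at 7.43 in untreated replicate 1 and at 6.95 and 2.01 with prednisolone.

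IL-6/STAT3 and acute-phase genes showed the same asymmetry, with medians of -0.11 in replicate 1 and -1.58 in replicate 2. Between the untreated grafts the median difference over these genes was 0.62 (replicate 2 minus replicate 1). Of 36 listed genes 33 were tested, 23 lay below 0, and 9 (27.3%, beside 25% of all genes) had both prednisolone arrays below both untreated arrays. Fga, the fibrinogen alpha chain, was at 5.66 and 8.21 untreated and 4.50 and 2.83 with prednisolone (-3.27 ± 0.99), and Fgb at 5.73 and 8.30 untreated and 5.57 and 1.55 with prednisolone. Socs3, the feedback inhibitor of STAT3, was at -2.75 and -1.27 untreated and -2.77 and -4.05 with prednisolone. In all 3 the groups were separate, by 0.02 units for Socs3, and replicate 2 was far below. Lifr, a receptor chain for IL-6 family cytokines, was tighter, at -1.77 and -1.90 untreated and -2.80 and -2.56 with prednisolone (-0.84 ± 0.18), below all other 6 arrays.

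Nephron segment genes differed more between the prednisolone grafts than between the groups, and proximal tubule genes differed between the untreated grafts as well. Over proximal tubule genes, replicate 2 minus replicate 1 had a median of 0.62 in the prednisolone pair and -0.81 in the untreated pair. Over genes of the later nephron these medians were 1.46 and -0.17. Of 73 proximal tubule genes 65 were tested, 32 lay above 0 and 33 below, and the median was -0.04. Slc17a3 and Slc17a1, given above, had the smallest p. Cubn, a receptor for filtered protein, was at 5.54 and 5.26 untreated and 4.70 and 4.67 with prednisolone (-0.72 ± 0.23), and the vitamin D hydroxylase Cyp24a1 at 1.78 and 1.86 untreated and 0.53 and -2.14 with prednisolone. The phosphate transporter Slc34a1 went the other way, at 2.90 and 0.41 untreated and 3.15 and 3.77 with prednisolone, where untreated replicate 2 was far below the rest. Genes of the later nephron, from Henle's loop to the collecting duct, had medians of -0.36 in replicate 1 and 1.04 in replicate 2, and replicate 2 was the higher for 52 of 56, beside 53.6% of all genes. The water channel Aqp2 was at 2.60 and 0.56 untreated and 2.88 and 4.65 with prednisolone (2.18 ± 0.83), and the tight-junction gene Cldn19 lay lower, at 1.94 and 3.02 untreated and 0.70 and 1.1 with prednisolone (-1.58 ± 0.41).

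Metabolic genes, some of which glucocorticoids are known to induce in liver, lay slightly higher, mainly in replicate 2. For gluconeogenesis and fatty acid oxidation 30 of 39 tested genes lay above 0 (median 0.29, at -0.06 in replicate 1 and 0.49 in replicate 2). Of these 39 genes, 0 reached an unadjusted p under 0.05, beside 11.8% of all genes. Pck1, the key enzyme of gluconeogenesis, was at 4.02 and 2.54 untreated and 2.20 and 5.72 with prednisolone, below the untreated range in replicate 1 and above it in replicate 2. Clock genes had a median of 0.19 over 17 genes, -0.06 with normexp, and Per2 was at -0.31 and -0.17 untreated and 0.25 and 1.04 with prednisolone (0.89 ± 0.32).

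Complement and coagulation genes had a median of 0.12 over 38 of 44 genes, with 22 above 0 and 16 below. C5 was at -0.93 and -1.06 untreated and -2.15 and -3.12 with prednisolone (-1.65 ± 0.33), and C4a at 2.91 and 2.99 untreated and 1.93 and 1.95 with prednisolone (-1.01 ± 0.24), both below all other 6 arrays. Blood genes, with 10 of 20 tested, had medians of 0.93 in replicate 1 and -0.40 in replicate 2, and Hbb, beta globin, was at -0.36 and -0.73 untreated and 1.1 and -1.26 with prednisolone. Genes of neighbouring tissues had a median of 0.03 over 18 of 34. Hsd3b1, a steroid-forming enzyme of adrenal and gonad, was at -0.61 and -1.46 untreated and -3.35 and -2.19 with prednisolone (-1.73 ± 0.43), and the fat-cell gene Fabp4 at -2.09 and -4.27 untreated and -0.92 and -1.48 with prednisolone (1.98 ± 0.72). The part of blood and neighbouring tissue in the differences above was not tested.

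The 2 prednisolone grafts differed in a set of injury and tubule genes. Genes more than 1 unit from the untreated mean numbered 2700 in replicate 1 and 3602 in replicate 2, with 373 above and 259 below in both and 273 in opposite directions. Fosl1, an AP-1 subunit, was at -0.74 and -0.06 untreated and 0.49 and -4.69 with prednisolone, and Il24, a cytokine of the IL-10 family, at 1.28 and 2.87 untreated and 2.75 and -2.25 with prednisolone. Reg3b, a secreted lectin of injured epithelia, was at -3.71 and -2.93 untreated and 0.27 and -4.69 with prednisolone. These were high in replicate 1 and far lower in replicate 2. The glucose transporter Slc5a2, SGLT2 of the early proximal tubule, followed them, at 5.89 and 5.03 untreated and 7.22 and 2.46 with prednisolone. Egf, which the distal nephron makes and loses on injury, was at 1.93 and 0.15 untreated and 1.27 and 5.95 with prednisolone, and the organic anion transporter Slco1a6 at 3.32 and 1.17 untreated and 0.35 and 5.10 with prednisolone. Cyp2c11, a cytochrome of male rats, was at -2.30 and -3.26 untreated and -4.94 and 0.27 with prednisolone. These 3 were high in replicate 2 alone, and the low-difference grafts, at 7.12 and 4.77 for Egf and 5.30 and 3.66 for Slco1a6, were also above the untreated high-difference grafts.

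**Figure D5:**
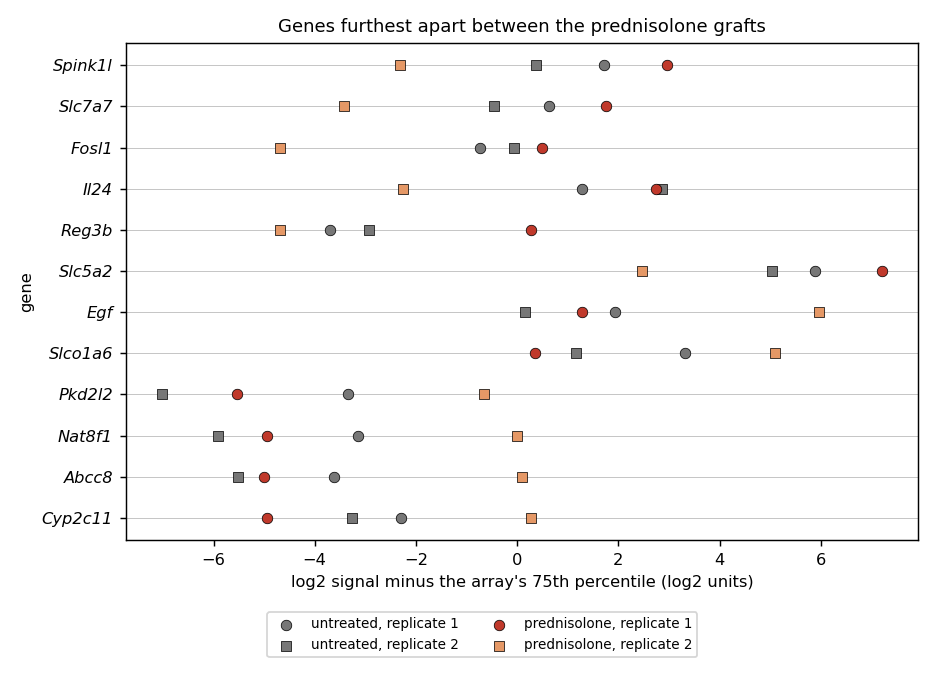
Levels on the 4 arrays (x axis, log2 signal minus the array's 75th percentile) of the 6 genes in each direction that differ most between the prednisolone grafts, with circles for replicate 1 and squares for replicate 2. Egf lies at 1.27 in replicate 1 and 5.95 in replicate 2, and Il24 at 2.75 and -2.25, while the untreated values lie closer together.

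The anti-IL6R grafts share slide 2 with the prednisolone grafts, so this pair of groups was compared within a slide. In limma 0 genes (0%) passed and 832 (3.4%) had an unadjusted p under 0.05. Both comparisons use the same prednisolone arrays. The prednisolone arrays were below all other 6 for 769 genes (3.14%) and above all for 496 (2.03%). Fst was lower than in anti-IL6R grafts by -1.34 ± 0.29 (prednisolone minus anti-IL6R, unadjusted p = 0.00297) and Medag by -0.95 ± 0.24 (unadjusted p = 0.00595). Cxcl9 differed by -1.5 ± 0.34 and RT1-A3 by -0.97 ± 0.20, both lower with prednisolone. Trim63 differed by -0.07 ± 0.39, Nqo1 by -0.23 ± 0.36 and Chac1 by 0.45 ± 0.42, with standard errors about as large as the differences or larger.

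Over all genes 48.1% lay lower with prednisolone than with anti-IL6R, and the median difference was 0.01. By list, prednisolone grafts lay below anti-IL6R grafts for 33 of 35 T and NK cell genes (median -0.75), 33 of 36 interferon genes (-0.67) and 33 of 36 antigen presentation genes (-0.64). For T and NK cell genes the medians were -0.01 in replicate 1 and -1.53 in replicate 2, and for interferon genes -0.08 and -1.20. Proximal tubule genes lay below for 60 of 65 (-0.49), with medians of -0.62 in replicate 1 and -0.15 in replicate 2. NRF2 and ATF4 genes were near those of the anti-IL6R grafts (0.07 and 0.15). Set against the untreated high-difference grafts, the low-difference grafts had medians of -0.41 for NRF2, -0.77 for ATF4, 1.54 for T and NK cell, 1.45 for macrophage and 0.60 for endothelial genes. The anti-IL6R grafts had -0.53, -0.82, 2.08, 1.89 and 0.89. The prednisolone grafts had -0.52, -0.70, 1.34, 1.54 and 0.64, and all 3 sets of values use the same 2 untreated arrays.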

How the data were processed

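Total RNA of 8 rat kidney graft samples in 4 groups of 2 was labelled with Cy3 (1 µg) and hybridised to 1-colour Agilent arrays, per the labels' protocols. Per the file headers, the authors' deposited files hold a processed signal intensity for each spot, made with Feature Extraction 9.5.1.1. Their value table was used as an alternative, and 0 of its columns were unmapped. Control and outlier-flagged spots were left out, spots of a probe were averaged, and log2 intensity was set against each array's 75th percentile of the deposited values. Genes entered the test if both arrays of any group were well above background, each by its probe of highest mean (41012 probes, 24452 genes). Between 64.5% and 74.0% of spots per array were well above background, and 2 arrays per group limit the precision. The 4 groups entered 1 fit in limma 3.58.1 (R 4.3.3), with 4 residual degrees of freedom. The fit was tested on simulated data with the same spread in all groups and no slide effect. That test does not cover the unequal spread of the pairs seen here. Probes were named through RefSeq tables by accession (10852), symbol (5537) or synonym (3705), and the others kept the name in the files.

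The members and gene lists were chosen with earlier results of these data known. Named genes were those followed in any case, the 6 per direction with the smallest p and the widest gap among genes whose groups do not overlap, the 6 per direction furthest apart between the prednisolone grafts, and the 4 of each list with the smallest p. List members named beyond these, for their function, were chosen after their values were seen, and a few tested genes are counted in lists but not reported here. Alternatives covered background correction, scaling, filters, probes, the fit and leaving out each array.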

Additional observations from a re-analysis of the deposited data

Results flagged for a closer look

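Il6, which encodes interleukin-6, was not tested because its probe was not well above background on both arrays of any group. It was well above background on prednisolone replicate 1 alone, at a level of -5.56. Prednisolone replicate 2 was at -7.24 and the untreated high-difference grafts were at -7.43 and -7.51, none of them well above background. It was listed here because a signal appeared in data outside the tested genes, above the level in the untreated grafts.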

How the results depend on the processing

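A fit without 1 array of a group keeps a single graft there, so its p-values take their spread from the other groups. The count of genes passing was 0 in limma, also with normexp, median scaling and the deposited value table. It was 4 with quantile normalization, and 0 to 223 with each array left out: 36 without untreated replicate 1, 0 without untreated replicate 2, 223 without prednisolone replicate 1 and 21 without prednisolone replicate 2. With the last 7 columns also left out (chosen after seeing the data), the last 2 were 63 and 22. Genes with an unadjusted p under 0.05 numbered 1282 in a fit of the 4 arrays alone and 1392 to 5433 with each array left out, the lowest without untreated replicate 2 and the highest without prednisolone replicate 1 (1327 and 5009 without the last 7 columns). The labels do not say that replicate numbers pair the arrays, and the deviations of same-numbered arrays correlated at -0.163. With a replicate block 0 genes passed and 2430 had an unadjusted p under 0.05, and with the crossed pairing, chosen after seeing the data, 0 and 3772. Differences that turned sign with normexp were Acp4 (-0.03), Cytl1 (-0.02), Fabp1 (-0.17), Hspa1l (-0.04), Klf9 (0.02), Lepr (-0.02) and Tsc22d3 (0.02). Tsc22d3 was 0.03 with quantile normalization and 0.07 as the mean over probes, where Hmmr was 0.52. With each array left out, differences that turned sign ranged from -1.16 to 0.17 for Dusp1, -0.63 to 0.17 for Per1, -0.42 to 0.25 for Tsc22d3, -0.42 to 2.93 for Ccl2, -0.71 to 1.64 for Hbb, -0.50 to 0.75 for Nfkbia, -0.39 to 2.28 for Pf4, -3.19 to 0.61 for Cxcl1, -0.28 to 0.09 for Klf9 and -0.45 to 2.28 for Slc4a1. Without the last 7 columns as well, Tsc22d3 was 0.06 without untreated replicate 2 and Dusp1 was 0.04 without prednisolone replicate 2. Other genes that turned sign were Cdh5 (-0.03 with normexp), Col1a1 (0.06 with normexp, 0.05 with the 75th percentile over probes well above background on all arrays, 0.12 with quantile normalization and 0.24 with the mean over a gene's probes) and Hspa5 (0.11 with normexp, 0.01 with median scaling, 0.06 with the 75th percentile over probes well above background on all arrays, 0.19 with quantile normalization, 0.01 with the deposited value table and 0.01 with flagged spots kept). Left-out ranges of further genes that turned sign were -0.07 to 1.56 for Cd74, -0.39 to 0.40 for Cdh5, -0.42 to 0.40 for Col1a1, -2.16 to 3.05 for Cyp2c11, -4.29 to 0.89 for Fosl1, -3.43 to 0.08 for Gclc, -2.20 to 1.03 for Hmox1, -0.92 to 0.92 for Hspa5, -1.17 to 0.54 for Icam1, -0.11 to 2.22 for Il1b, -4.32 to 0.68 for Il24, -1.08 to 2.44 for Pck1, -1.37 to 3.59 for Reg3b, -0.64 to 3.62 for S100a8, -3.0 to 1.76 for Slc5a2 and -1.89 to 2.86 for Slco1a6. The signs that turned with the last 7 columns also left out were, without untreated replicate 1, Col1a1 at 0.40; without untreated replicate 2, Cdh5 at -0.39, Cyp2c11 at -0.04, Hspa5 at 0.92, Pck1 at -0.06 and Slco1a6 at -0.60; without prednisolone replicate 1, Cd74 at -0.07, Cdh5 at -0.31, Col1a1 at 0.19, Gclc at 0.08, Il1b at -0.11, Reg3b at -1.37 and S100a8 at -0.64; without prednisolone replicate 2, Cyp2c11 at -2.16, Fosl1 at 0.89, Hmox1 at 1.03, Hspa5 at 0.34, Icam1 at 0.54, Il24 at 0.68, Pck1 at -1.08, Slc5a2 at 1.76 and Slco1a6 at -1.89. The cause was not tested. Signal near background limits the leukocyte genes.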
